A study of Mus musculus with 32 samples.

Results

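The step described here is the passage from SSEA1-Thy1- cells to SSEA1+ cells during the reprogramming of mouse embryonic fibroblasts, read from open chromatin with the control hairpin. The list of ATAC-seq peaks of the SSEA1+ cells was set against that of the SSEA1-Thy1- cells. Overlapping intervals were merged within each list, and a site was called opened if it lay only in SSEA1+ cells, closed if it lay only in SSEA1-Thy1- cells, and shared if the lists overlapped by at least 1 bp. There were 164697 such sites, of 276187 sites in all 15 lists of the series merged. Of these, 13457 were opened, 28948 were closed and 122292 were shared.

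ATAC-seq marks accessible DNA by the insertions of a transposase. The series holds 32 samples in 15 groups, and each group has 1 deposited list of peaks, 400 bp intervals without a height. The SSEA1+ group was made of control (shLuci) cells sorted at days 6 and 9, 1 sample each, and so was the SSEA1-Thy1- group. The other control groups were fibroblasts at day 0, Thy1+ cells of days 3, 6 and 9, and GFP+ cells of day 12. All sorted cells were fibroblasts made to express Oct4, Sox2, Klf4 and c-Myc (OSKM) from a doxycycline-inducible lentivirus, and all received an shRNA, against luciferase (shLuci) or against Ctcf (shCTCF). The day 10 groups carried a control vector, a Ctcf overexpression vector alone, or the Ctcf vector together with an shRNA against Smarca5. The day 12 groups were unsorted cells with the control or the Smarca5 hairpin. The labels name OG2 fibroblasts for the hairpins. OG2 cells carry a GFP reporter under regulatory DNA of Pou5f1. With 1 list a group there was no replicate, the depth is unknown, and no test was made. How the samples of days 6 and 9 were combined is not given in the sources used here. Ranges in parentheses are exact 95% intervals (Clopper-Pearson) and reflect only the number of sites counted.

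In reprogramming, fibroblasts first lose the surface protein Thy1, some of them then gain the carbohydrate antigen SSEA1, and a small part of those reach the pluripotent state. Fibroblast enhancers are held open largely by AP-1 together with Runx and Tead factors, and the epithelial state is restrained by Snail, Twist and Zeb repressors, which bind E-boxes. Nanog, Esrrb and Tdgf1 belong to the genes that switch on in the later part of the process.

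Promoter windows of 6 genes are shown first, as examples of the motifs that differed between the classes. They are given from RefSeq, GRCm38.p6, from 250 bases before to 50 bases after the annotated start, on the gene's strand. The first 3 held a peak in SSEA1+ cells and none in SSEA1-Thy1- cells. Capitals mark CAGGTG or its complement, the E-box bound by Zeb and Snail proteins. Nanog is a transcription factor of pluripotent cells, Crb3 is a polarity protein of epithelial junctions, and Eras is a Ras protein of embryonic stem cells, which was chosen after its values were seen.
Nanog (chr6:122707239-122707538, plus strand): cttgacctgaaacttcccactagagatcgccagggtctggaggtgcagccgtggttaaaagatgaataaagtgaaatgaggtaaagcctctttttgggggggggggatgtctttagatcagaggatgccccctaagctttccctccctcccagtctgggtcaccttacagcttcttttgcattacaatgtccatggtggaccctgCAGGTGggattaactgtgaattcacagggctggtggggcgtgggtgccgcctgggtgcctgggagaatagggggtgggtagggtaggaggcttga
Crb3 (chr17:57061951-57062250, plus strand): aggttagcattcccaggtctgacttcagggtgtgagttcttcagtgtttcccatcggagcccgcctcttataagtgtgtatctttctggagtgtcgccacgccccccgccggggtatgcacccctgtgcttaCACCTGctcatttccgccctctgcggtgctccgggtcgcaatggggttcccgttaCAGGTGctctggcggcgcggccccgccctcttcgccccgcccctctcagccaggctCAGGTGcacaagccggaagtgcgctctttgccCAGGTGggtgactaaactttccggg
Eras (chrX:7928558-7928857, minus strand): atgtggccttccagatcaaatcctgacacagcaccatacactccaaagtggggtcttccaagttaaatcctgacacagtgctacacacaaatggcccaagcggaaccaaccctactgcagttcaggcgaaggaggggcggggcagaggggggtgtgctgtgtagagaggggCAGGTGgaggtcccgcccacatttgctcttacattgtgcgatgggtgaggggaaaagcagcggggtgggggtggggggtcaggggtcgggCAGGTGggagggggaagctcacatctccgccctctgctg

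The other 3 windows held a peak in SSEA1-Thy1- cells and none in SSEA1+ cells. Capitals mark TGANTCA, the site of AP-1. Col6a1 is a chain of collagen VI, and the cytokine genes Il6 and Il11 were chosen after their values were seen. These windows were picked because they hold the motif, and the shares over all windows are given further on.
Col6a1 (chr10:76725995-76726294, minus strand): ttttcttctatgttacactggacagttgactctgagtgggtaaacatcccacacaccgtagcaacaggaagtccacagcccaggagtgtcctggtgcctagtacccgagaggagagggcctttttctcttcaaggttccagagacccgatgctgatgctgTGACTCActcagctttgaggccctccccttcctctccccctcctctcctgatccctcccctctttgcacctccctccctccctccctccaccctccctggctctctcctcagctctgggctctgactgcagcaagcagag
Il6 (chr5:30012864-30013163, plus strand): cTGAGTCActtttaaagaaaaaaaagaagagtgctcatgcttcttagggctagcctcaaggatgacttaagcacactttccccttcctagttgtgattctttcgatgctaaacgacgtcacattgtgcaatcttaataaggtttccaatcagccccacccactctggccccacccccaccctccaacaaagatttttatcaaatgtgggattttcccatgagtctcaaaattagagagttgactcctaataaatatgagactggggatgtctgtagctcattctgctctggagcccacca
Il11 (chr7:4778092-4778391, minus strand): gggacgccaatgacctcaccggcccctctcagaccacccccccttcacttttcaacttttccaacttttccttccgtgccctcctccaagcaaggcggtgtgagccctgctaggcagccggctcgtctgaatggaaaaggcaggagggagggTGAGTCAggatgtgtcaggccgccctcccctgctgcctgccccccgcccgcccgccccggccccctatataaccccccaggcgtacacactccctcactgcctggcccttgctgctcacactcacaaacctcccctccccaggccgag

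More sites closed than opened. The SSEA1+ list held 135749 sites and the SSEA1-Thy1- list 151240. Opened sites made up 9.91% of the SSEA1+ list (9.76 to 10.1), and closed sites 19.1% of the SSEA1-Thy1- list (18.9 to 19.3), or 2.15 closed sites for each opened one. In the same order of steps, the ratio of closed to opened was 0.359 from day 0 to Thy1+ cells, 2.73 from Thy1+ to SSEA1-Thy1- cells, and 3.07 from SSEA1+ to GFP+ cells. Of all sites of the 2 lists, 74.3% were in both, against 44.5% to 60.5% in the other control steps. Of the SSEA1+ intervals, 90.2% had an interval at the identical position in SSEA1-Thy1- cells. No SSEA1-Thy1- peak lay within 1 kb of 11468 of the opened sites, and no SSEA1+ peak within 1 kb of 25712 of the closed sites.

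Closed sites were mostly old fibroblast sites, and opened sites were mixed in origin. At day 0, 27.5% of opened sites had a peak (26.8 to 28.3), against 68.5% of closed sites (68.0 to 69.0) and 45.3% of shared sites. In Thy1+ cells 46.7% of opened, 82.1% of closed and 83.8% of shared sites had one. In GFP+ cells these shares were 42.0% of opened, 18.1% of closed and 52.5% of shared sites. Thus 16.1% of closed sites, 4648 in number, had no peak at day 0 or in Thy1+ cells, against 49.8% of opened sites, 6704 in number. Opened sites included 3239 that were open at day 0 and in Thy1+ cells, then not in the SSEA1-Thy1- list and again present in the SSEA1+ list. A further 3611, or 26.8%, were in no other control list. Among opened sites with no peak at day 0 or in Thy1+ cells, 46.1% had one in GFP+ cells (44.9 to 47.3), against 26.1% of such shared sites (25.5 to 26.7). Among opened sites that had one earlier, 38.0% were in the GFP+ list, against 57.5% of such shared sites.

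**Figure D1:**
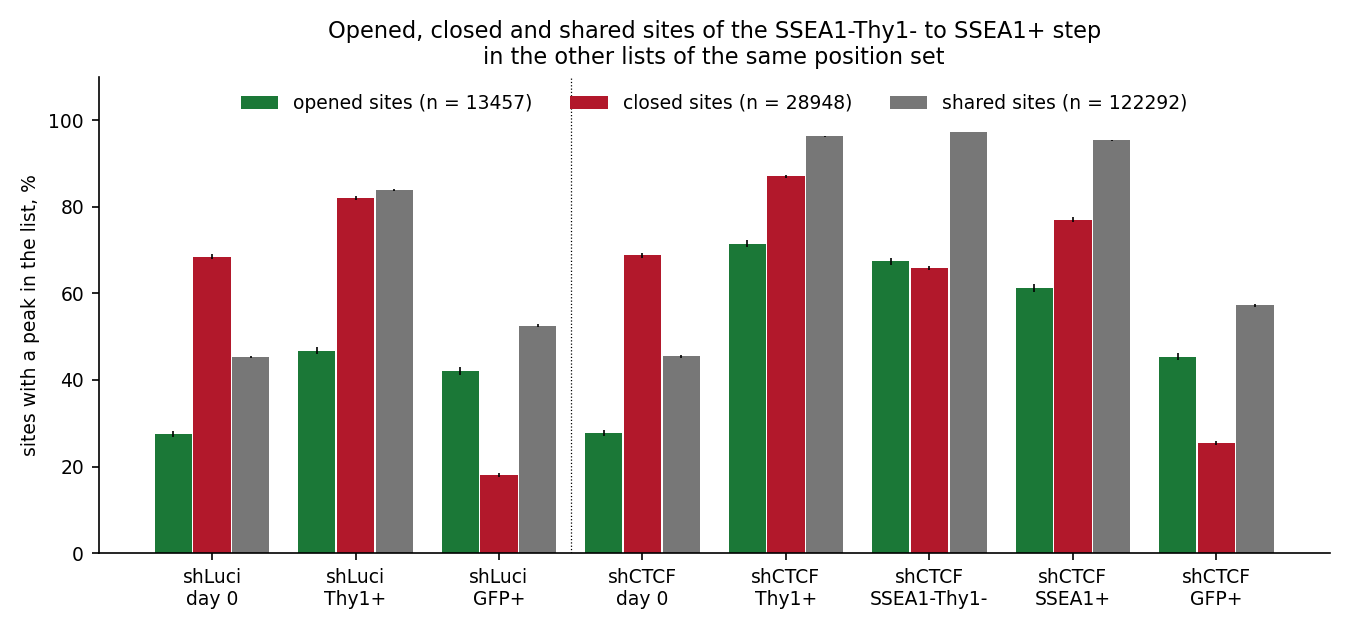
Share of opened (green), closed (red) and shared (grey) sites with a peak in each other list of the same position set, in percent, with exact 95% intervals; control lists stand left of the dotted line and shCTCF lists right of it. Closed sites exceed opened sites at day 0 and in Thy1+ cells and are the lowest class in GFP+ cells, at 18.1%.

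The same 2 sorted populations with the Ctcf hairpin gave lists that the classes did not use. CTCF is the zinc finger protein that marks insulators and domain borders. In those lists, 13.9% of opened sites (13.3 to 14.4) had a peak only in SSEA1+ cells and 20.1% (19.4 to 20.7) only in SSEA1-Thy1- cells, while 47.4% had one in both and 18.7% in neither. Of closed sites, 22.2% had a peak only in SSEA1+ cells with the Ctcf hairpin and 10.99% only in SSEA1-Thy1- cells, with 54.9% in both. Of shared sites 93.5% were in both. The direction seen with the control hairpin was thus the less frequent one among sites that differed between the shCTCF lists. The shCTCF lists also differed in size the other way, with 183640 sites in SSEA1+ cells and 163857 in SSEA1-Thy1- cells. The hairpin and the depth of the libraries cannot be told apart here.

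The order of the classes was the same in both GFP+ lists. With the Ctcf hairpin 45.4% of opened sites, 25.4% of closed sites and 57.2% of shared sites had a peak in GFP+ cells. The day 10 and day 12 lists have peak positions of their own, so their shares are set only against each other. In the unsorted day 12 control cells 5.75% of opened, 23.7% of closed and 25.02% of shared sites had a peak. In the day 10 control cells these were 16.5%, 15.4% and 46.3%, and in the day 10 cells with Ctcf overexpression 15.7%, 13.5% and 43.2%. In the day 10 cells with Ctcf overexpression and the Smarca5 hairpin they were 11.8%, 14.9% and 43.2%. The day 12 control list and this last day 10 list held closed sites more often than opened sites. The day 10 lists without the Smarca5 hairpin held opened sites slightly more often than closed ones.

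Changed sites lay away from the annotated promoters. Starts were annotated for 17492 of 21887 protein-coding genes and for none on chromosome 18, so sites at the other genes' starts can count as farther away. Within 1 kb of an annotated start of a protein-coding gene were 3.17% of opened sites (2.88 to 3.48), 2.31% of closed sites (2.14 to 2.49) and 10.5% of shared sites. With the starts moved by 20 kb these shares were 2.56%, 2.22% and 2.53%. In genes but farther from a start lay 50.2% of opened, 50.6% of closed and 47.9% of shared sites. The median distance to the nearest annotated start, without chromosome 18, was 44.1 kb for opened, 54.7 kb for closed and 39.3 kb for shared sites. Closed sites made up 16.8% of the SSEA1-Thy1- sites on chromosome 7 and 20.9% on chromosome 15, the ends of the range over autosomes, and 15.5% on X (14.4 to 16.7).

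Of the 17492 protein-coding genes with an annotated start, 11716 had a peak within 1 kb of it in SSEA1+ cells and 11849 in SSEA1-Thy1- cells. Among the 5643 genes with none in SSEA1-Thy1- cells, 177 gained one, or 3.14%. Among the 11849 with one, 310 lost it, or 2.62%. Over all 21887 protein-coding genes, 3291 (15.0%) had more opened than closed sites in the gene or within 10 kb, and 7131 (32.6%) had more closed than opened ones. The median difference over all genes was 0. For the gene lists, sites within 50 kb of the genes were also counted, and the log2 ratio of these counts, SSEA1+ over SSEA1-Thy1-, is given beside -0.16 for the whole lists.

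Among the 6 core pluripotency factors, 4 have an annotated start in the table, and Nanog was the only one of these without a start peak in SSEA1-Thy1- cells. It gained one. Nanog held 3 sites within 10 kb at day 0, 3 in Thy1+ cells, 3 in SSEA1-Thy1- cells, 6 in SSEA1+ cells and 5 in GFP+ cells. The 3 opened sites lay at -0.02 kb from the first start (chr6:122707270-122707669), at 5.7 kb in the gene (chr6:122712993-122713392) and at 8.53 kb, beyond the gene's end (chr6:122715816-122716215). None of the 3 was in the day 0 or Thy1+ list, and all 3 were in the GFP+ lists with either hairpin. With the Ctcf hairpin, the start site was in neither the SSEA1+ nor the SSEA1-Thy1- list.

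Sox2, the high mobility group partner of Oct4, had 1 opened site 4.06 kb after its start (chr3:34653858-34654257) that was also in GFP+ cells, and no closed site. Pou5f1, which encodes Oct4, had no opened site within 10 kb and 2 closed ones, at 0.07 kb from its start (chr17:35505901-35506300) and at -6.09 kb (chr17:35499738-35500137), where a negative distance lies before the start. The first of these was present at day 0, absent in Thy1+ cells, present in SSEA1-Thy1- cells, absent in SSEA1+ cells and present in GFP+ cells. A peak within 1 kb of an annotated Pou5f1 start was found in all 5 control lists. The extra copies of Pou5f1 DNA in the reporter and the OSKM vector map to the same locus, and their part in these calls was not tested. Around the 6 core genes the 5 control lists held 59, 78, 79, 80 and 99 sites within 50 kb, in the order day 0, Thy1+, SSEA1-Thy1-, SSEA1+ and GFP+. Of the 15 opened sites among them, 14 were in the GFP+ list (93.3%, 68.1 to 99.8), against 42.0% of all opened sites. Of the 14 closed ones, 9 were in the GFP+ list (64.3%, against 18.1% of all closed sites), and of the 65 shared ones 53 (81.5%, against 52.5% of all shared sites). The GFP+ share was thus above that of the whole class for all 3 classes near these genes. Of the 14 opened sites near housekeeping genes, 10 were in the GFP+ list (71.4%).

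Of the SSEA1-Thy1- sites near naive pluripotency factors, 13.6% closed (8.64 to 20.1). Of 14 genes, 4 had more opened than closed sites within 10 kb, 1 had more closed ones and 9 had equal numbers. Over all genes, 15.0% had more opened and 32.6% more closed sites. The log2 ratio was 0.04. Esrrb, a nuclear receptor that sustains self-renewal, held 8, 14, 11, 16 and 19 sites in the order from day 0 to GFP+ cells, 8 of them opened and 3 closed in this step. Of the 8 opened Esrrb sites, 7 were in the GFP+ list, 3 in Thy1+ cells and 2 at day 0. Opened Esrrb sites at 117.94, 129.19, 137.83 and 140.75 kb from the 5′ most start followed each other with no other site between (chr12:86478862-86502066). Klf4, whose coding sequence is in the OSKM vector, had no opened and no closed site within 10 kb.

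Of the 19 late pluripotency genes, 4 had more opened and 6 more closed sites, beside 15.0% and 32.6% of all genes. The log2 ratio was -0.06. Tdgf1, a co-receptor of Nodal, gained a start peak. Its opened sites lay at -0.62 kb (chr9:110946576-110946975) and -1.69 kb (chr9:110947645-110948044) from the start, were in neither the day 0 nor the Thy1+ list, and were both in the GFP+ list. Tdgf1 held 3, 4, 3, 5 and 4 sites from day 0 to GFP+ cells. Dppa5a, an RNA-binding protein gene of stem cells with no annotated start in the table, lost a peak at its gene end that was in the GFP+ list but not at day 0 or in Thy1+ cells, and had 1 opened site. Lin28a, which blocks let-7 maturation, had 1 site in each of the first 4 populations and 4 in GFP+ cells. Fgf4, a growth factor gene, had 1 opened site, and Fbxo15 had 2.

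Among 20 epithelial genes, Crb3 gained a start peak, and the log2 ratio was -0.02. Of the 20, 3 had more opened and 5 more closed sites, beside 15.0% and 32.6% of all genes. Crb3 held 1, 3, 3, 4 and 4 sites from day 0 to GFP+ cells, and its opened site lay at -0.05 kb from the start (chr17:57061949-57062348) and was in the GFP+ and day 10 lists. Cdh1, which encodes E-cadherin, had 3 opened, 2 closed and 13 shared sites, and all 3 opened ones were in GFP+ cells and none at day 0 or in Thy1+ cells. Epcam, an epithelial adhesion gene, had 3 sites and none that opened or closed. Of the sites near epithelial genes in SSEA1-Thy1- cells, 10.3% closed (7.26 to 14.1), against 19.1% of the whole list. Most of these sites had been present in Thy1+ cells, where 363 were counted, against 244 at day 0.

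**Figure D2:**
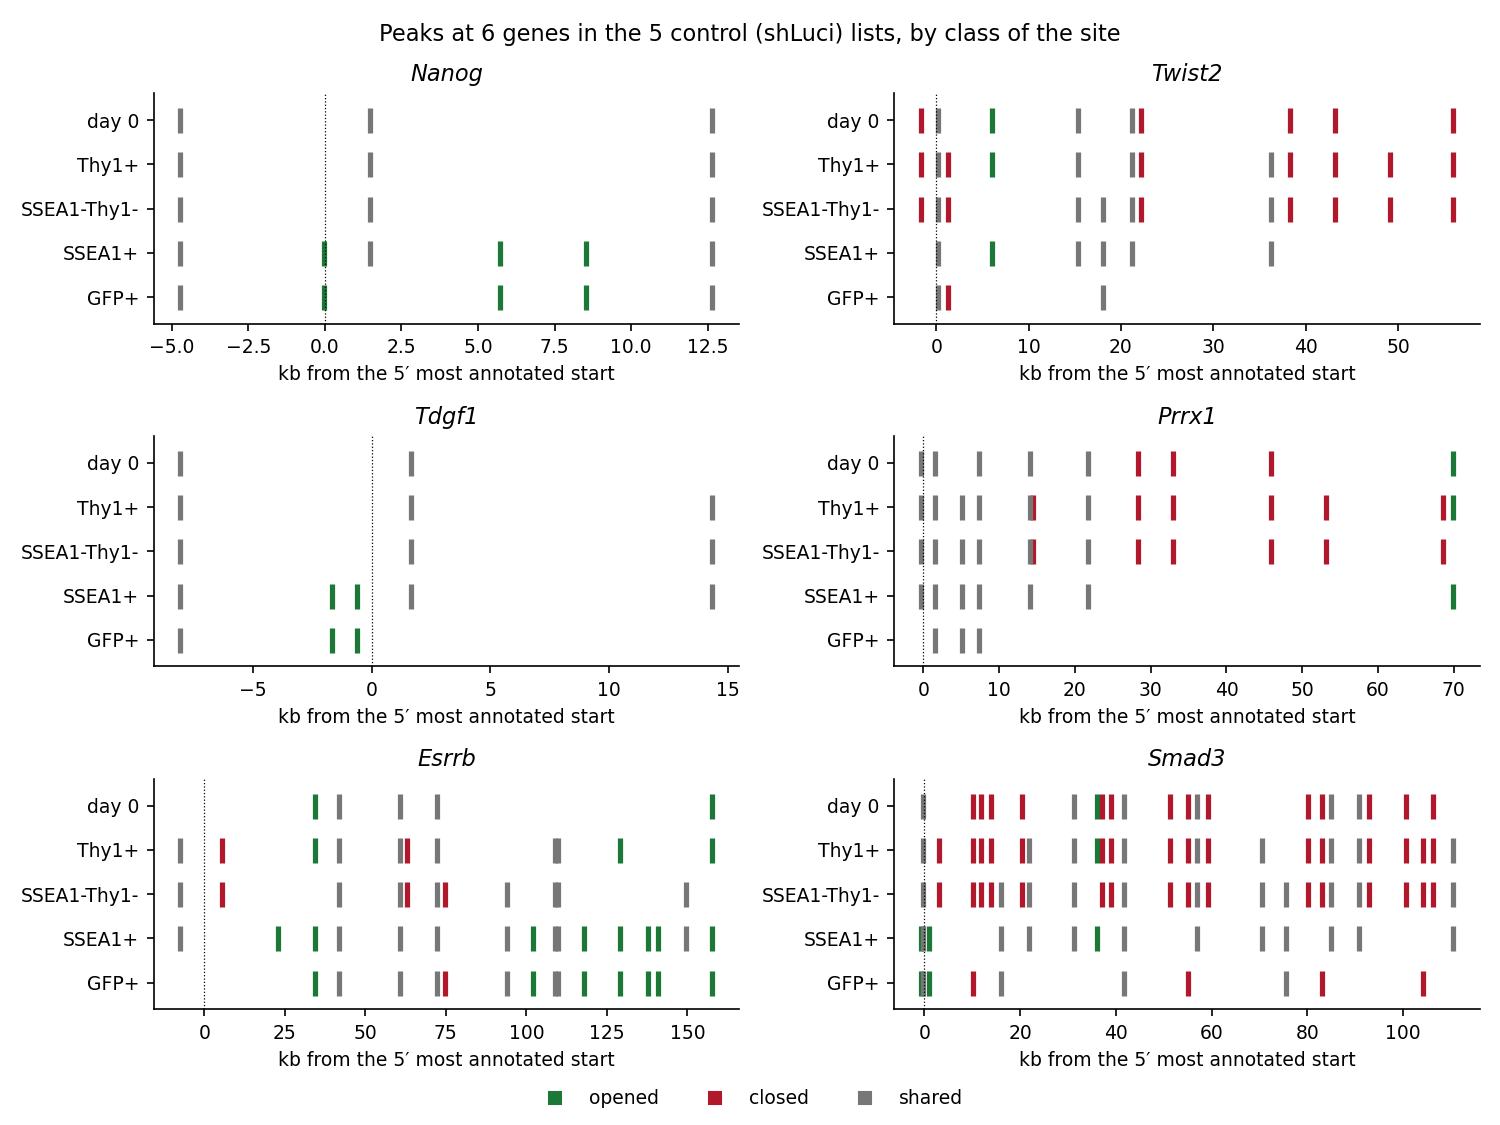
Peaks in or within 10 kb of Nanog, Tdgf1, Esrrb, Twist2, Prrx1 and Smad3 in the 5 control lists, by distance from the 5′ most annotated start in kb; each tick is 1 site, green if opened, red if closed and grey if shared. The 3 opened Nanog sites appear in SSEA1+ and GFP+ cells alone among these lists, while 16 Smad3 sites end with the SSEA1-Thy1- list, 4 of them back in GFP+ cells.

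The EMT regulators, which hold the mesenchymal state, lost sites. Of the 6 EMT regulators, none had more opened than closed sites and 5 had more closed ones, beside 15.0% and 32.6% of all genes. Their sites within 50 kb numbered 105, 125, 100, 74 and 49 from day 0 to GFP+ cells. The log2 ratio was -0.43, and 33.0% of the SSEA1-Thy1- sites closed (23.9 to 43.1). Twist2, a bHLH repressor, had 7 closed sites, 1 opened and 5 shared. All 7 were in Thy1+ cells, 5 at day 0 and 1 in GFP+ cells. Zeb1, a repressor of Cdh1, had 6 closed sites, all present at day 0 and in Thy1+ cells and none in GFP+ cells, with 2 opened ones. Twist1 had 1 closed site, and Snai2 had 1 site that stayed.

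Of 21 mesenchymal transcription factors, 13 had more closed and 2 more opened sites, beside 32.6% and 15.0% of all genes. Their log2 ratio was -0.23. Of their SSEA1-Thy1- sites 22.4% closed (18.04 to 27.16), an interval that holds the 19.1% of the whole list. Prrx1, a homeobox gene of limb and skin fibroblasts, held 17, 23, 12, 7 and 3 sites from day 0 to GFP+ cells. Its 6 closed sites lay 14.5 to 68.6 kb after the start, all within the gene, and all had been in Thy1+ cells and none was in GFP+ cells. Ebf1 had 10 closed and 2 opened sites. Tcf21 and Meis2, of the same list, each gained a start peak. The Tcf21 start site, at -0.06 kb, was also in GFP+ cells, and the Meis2 site was at day 0 but not in GFP+ cells.

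Collagen and matrix genes lost 35.1% of their sites. Of 21 genes, 18 had more closed than opened sites within 10 kb, 3 had equal numbers and none had more opened ones, against 32.6% and 15.0% of all genes. Their sites within 50 kb numbered 437, 490, 339, 237 and 156 from day 0 to GFP+ cells, with a log2 ratio of -0.52. Of the SSEA1-Thy1- sites 119, or 35.1%, closed (30.0 to 40.4). Of these 119, 107 were at day 0, 113 in Thy1+ cells and 17 in GFP+ cells. Start peaks were lost at Col6a1, Col6a3 and Postn, 3 of the 13 genes that had one, beside 2.62% of all genes that had one. All 13 genes with an annotated start had a start peak in SSEA1-Thy1- cells, so none could be gained. The lost sites lay at -0.08 kb from the Col6a1 start, 0.01 kb from the Col6a3 start and -0.63 kb from the start of Postn, which encodes periostin. The Col6a1 site was back in GFP+ cells, and the Col6a3 and Postn sites were not. Fbn1, the fibrillin gene, held 37, 48, 35, 26 and 7 sites, with 11 closed and 2 opened in this step. Col1a1, the main chain of collagen I, had 7 shared sites within 10 kb and none closed. Col12a1, with 5 closed sites and 1 opened, gained a peak at a gene end.

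Contractile genes had 7 of 12 genes on the closed side and none on the opened side (32.6% and 15.0% of all genes). Their log2 ratio was -0.24. Of their SSEA1-Thy1- sites 24.0% closed (18.4 to 30.2), an interval that holds the 19.1% of the whole list. Cald1, the caldesmon gene, held 47, 45, 23, 16 and 12 sites from day 0 to GFP+ cells, with 10 closed and 3 opened. Of the 16 Runx, Tead and partner genes 8 had more closed and 3 more opened sites, beside 32.6% and 15.0% of all genes. Their log2 ratio was -0.28. Wwtr1, which encodes the Tead coactivator Taz, held 22, 22, 18, 8 and 8 sites, 11 of them closed in this step and 1 opened. Runx1 had 7 closed sites, none opened and 20 shared. Ankrd1, a target gene of Yap and Taz, lost a start peak at -0.24 kb that was present in GFP+ cells. Tead1 was mixed, with 5 opened and 7 closed sites.

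AP-1 subunit genes did not stand apart from the whole lists. Of 12 genes, 3 had more opened and 4 more closed sites, beside 15.0% and 32.6% of all genes. The log2 ratio was -0.15, beside -0.16 for all sites. Fosl1, which encodes Fra-1, had 2 closed sites and none opened. Junb had 2 opened and 2 closed sites, and its closed site at -0.06 kb was in every other control list.

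In the TGF-beta pathway, 12 of 18 genes had more closed and 3 more opened sites, beside 32.6% and 15.0% of all genes. Sites within 50 kb of the 18 genes numbered 435, 518, 415, 335 and 255 from day 0 to GFP+ cells, with a log2 ratio of -0.31. Among ligands, Bmp4 gained a start peak at -0.05 kb (chr14:46390519-46390918) that was in GFP+ cells and in no earlier control list. Among the Smads, Smad3, which carries the TGF-beta signal to the nucleus, held 23, 30, 27, 14 and 10 sites. Its 16 closed sites spread from 2.99 to 106.23 kb after the start. All 16 were in Thy1+ cells, 14 at day 0 and 4 in GFP+ cells. All 16 were also in the SSEA1+ list with the Ctcf hairpin, which held 77.0% of all closed sites. The SSEA1-Thy1- list with that hairpin held 14 of the 16, and 65.9% of all closed sites. Its 3 opened sites included 2 close to the start, at -0.67 and 1.08 kb, both in GFP+ cells. Ltbp1, which binds latent TGF-beta in the matrix, had 13 closed and 4 opened sites.

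**Figure D3:**
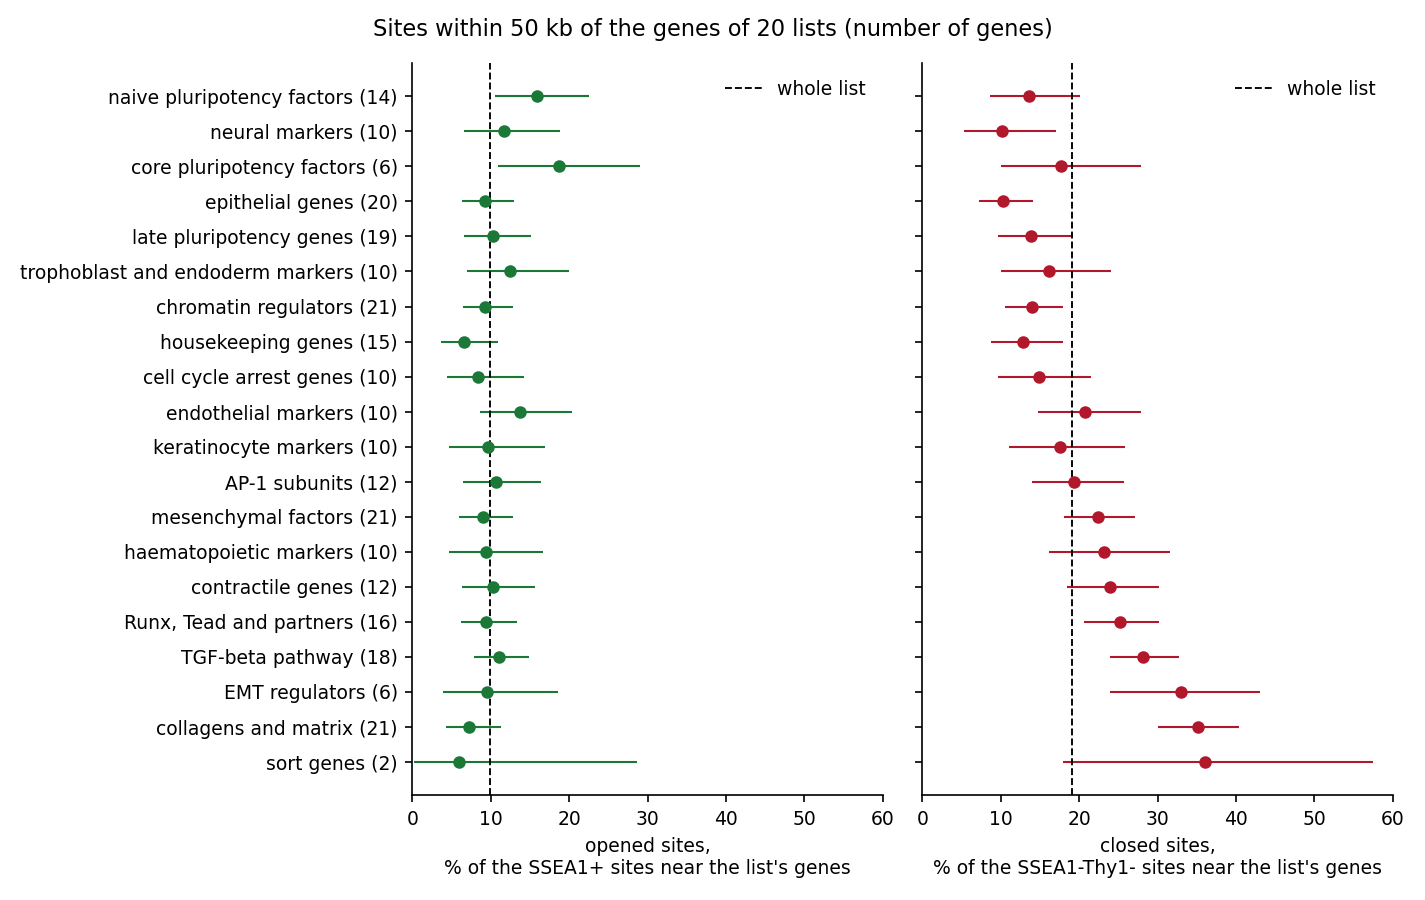
Opened sites as a percentage of the SSEA1+ sites (left) and closed sites as a percentage of the SSEA1-Thy1- sites (right) within 50 kb of the genes of 20 lists, with exact 95% intervals; dashed lines give the whole lists, 9.91% and 19.1%. On the right, 10 lists lie above the line, and the intervals of collagens and matrix, EMT regulators, the TGF-beta pathway and Runx, Tead and partners do not reach it. Below the line, the intervals of epithelial genes, neural markers, housekeeping genes and chromatin regulators do not reach it.

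**Figure D4:**
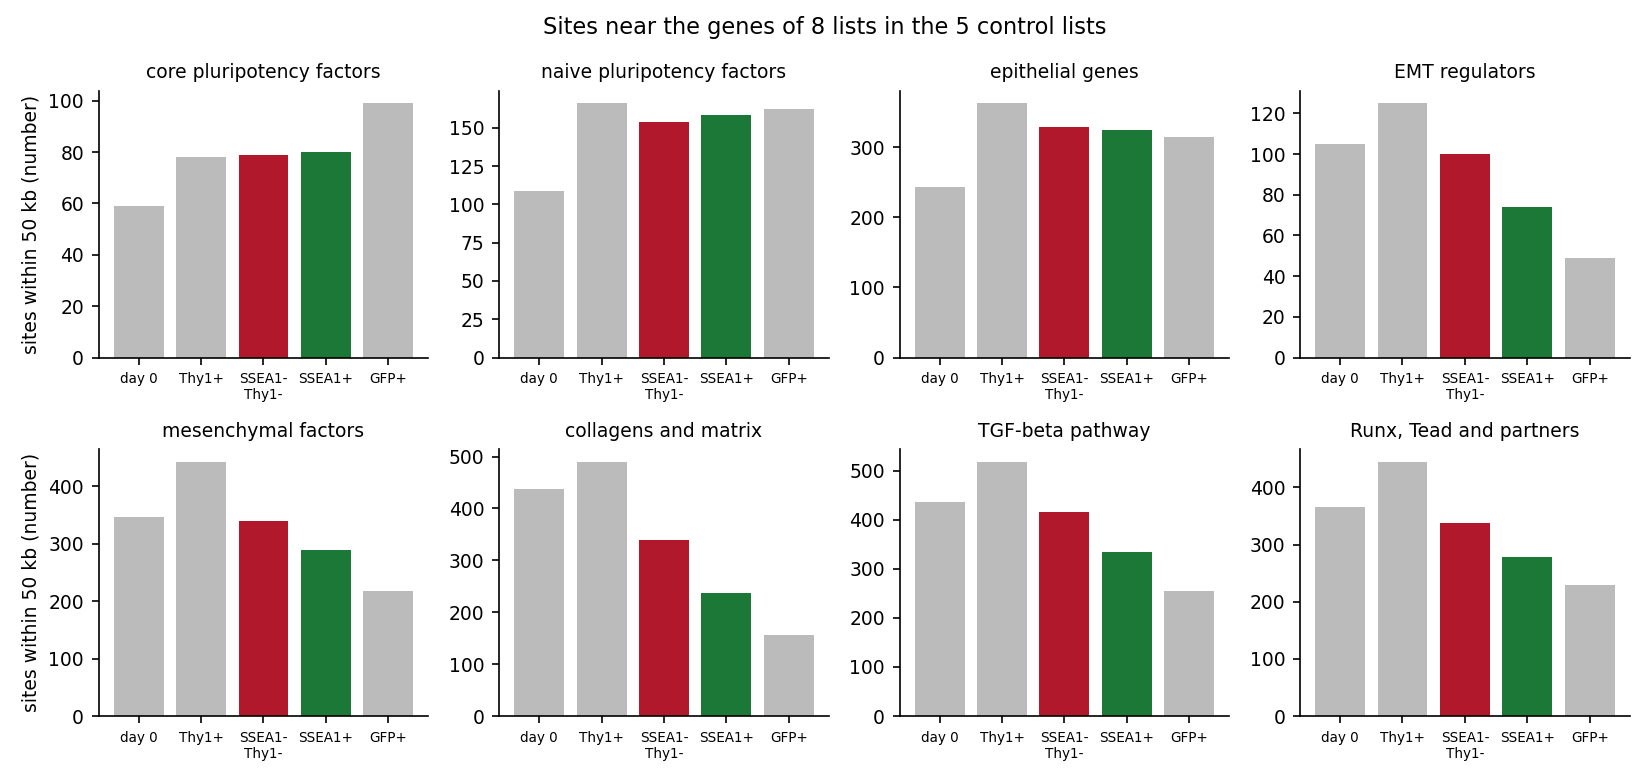
Number of sites within 50 kb of the genes of 8 lists in the 5 control lists, with the SSEA1-Thy1- list in red and the SSEA1+ list in green. Core pluripotency genes have 80 sites in SSEA1+ cells and 79 in SSEA1-Thy1- cells, and collagens and matrix 237 in SSEA1+ cells and 339 in SSEA1-Thy1- cells.

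For cell cycle, chromatin and housekeeping genes the log2 ratio lay closer to 0 than that of all sites. It was -0.11 for 10 cell cycle arrest genes (-0.21 to 0.015), -0.08 for 21 chromatin regulators (-0.148 to -0.001) and -0.10 for 15 housekeeping genes (-0.176 to -0.008). These ranges follow from the exact interval of the opened share among changed sites. Those of the cell cycle arrest and housekeeping genes hold the -0.16 of all sites. Ctcf and Smarca5 had no opened and no closed site within 10 kb. Rad21, a cohesin subunit gene, and Actb each gained a peak at a gene end. Among the genes behind the sort, Thy1 held 2 sites in SSEA1+ cells and 3 in SSEA1-Thy1- cells within 10 kb, and Fut4, a fucosyltransferase gene taken for SSEA1, held 2 in both. Both had a start or gene-end peak in all 5 control lists. Within 50 kb, however, Thy1 had 10 sites in SSEA1+ cells and 16 in SSEA1-Thy1- cells, with 6 closed and none opened. Over both sort genes 9 of 25 SSEA1-Thy1- sites closed (36.0%, 17.97 to 57.48), and the log2 ratio was -0.56, the most negative of the 20 lists.

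Markers were checked for the identity of the cells. Of 6 pluripotent markers, 5 had a start or gene-end peak in SSEA1+ cells and 4 in SSEA1-Thy1- cells, with Nanog and Tdgf1 gained and Dppa5a lost. Of 6 fibroblast markers, all 6 had one in both lists and 4 in GFP+ cells, while their sites within 10 kb numbered 27 in SSEA1+ cells and 35 in SSEA1-Thy1- cells. All 5 epithelial markers had one in both. For other cell types the number of markers with such a peak differed by at most 1 of 5. Endothelial markers had 3 in SSEA1+ cells and 2 in SSEA1-Thy1- cells, and trophoblast and endoderm markers 4 in SSEA1+ cells and 5 in SSEA1-Thy1- cells. Both lists had 3 haematopoietic, 4 neural and 2 keratinocyte markers. Within 10 kb of the haematopoietic markers lay 26 sites in SSEA1+ cells and 31 in SSEA1-Thy1- cells, and of the endothelial markers 39 in SSEA1+ cells and 46 in SSEA1-Thy1- cells. Ptprc, which encodes CD45, and Cdh5 were gained, and Csf1r and Gata4 were lost. The log2 ratios of the 10-gene lists of these cell types were highest for neural genes at 0.02, followed by trophoblast and endoderm genes at -0.06, endothelial genes at -0.12, keratinocyte genes at -0.13 and haematopoietic genes at -0.24. The part of such cells in the results was not tested, and fewer cells of a type and weaker opening in each cell cannot be told apart in bulk samples.

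The genes with the largest differences between opened and closed sites were mostly long. On the opened side Tenm2, a teneurin adhesion gene, had 11 opened and 4 closed sites, a difference of 7. Cadm1, Grin2b, Hydin, Ptprn2 and Zfhx4 had a difference of 6, and Bcat1, Camk1d, Esrrb and Med23 of 5. Their lengths ran from 43.5 kb (Med23) to 1230.4 kb (Tenm2). For Zfhx4, 6 of 7 opened sites had been in Thy1+ cells and 1 was in GFP+ cells, and none of the 6 opened Grin2b sites was in GFP+ cells. On the closed side Lpp, a LIM protein gene of focal adhesions, had a difference of -24, with 108, 110, 63, 39 and 10 sites from day 0 to GFP+ cells. Arhgap26 and Atxn1 followed at -21, Rbms3 at -20, Pde4d and Syne1 at -19, Erc2, Gpc6 and Ralgps1 at -16, and Gas7 at -15. Their lengths ran from 236 kb (Gas7) to 1302 kb (Pde4d).

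Closed sites often followed each other along the chromosome. Runs of at least 3 neighbouring closed sites, with no opened or shared site between, held 14.7% of closed sites, and such runs held 2.23% of opened sites. Closed sites were also more numerous, and the part of that in these shares was not tested. The longest closed runs had 8 sites, among them 1 of 35.2 kb next to Col6a2 (chr10:76634097-76669271), 1 of 81.6 kb next to Tnc, which encodes tenascin C, and 1 of 36.8 kb in Cgnl1. A run of 7 closed sites lay within Col5a1 (chr2:27916192-27939834). The longest opened run had 5 sites and spanned Lrrfip1 and Rbm44 (chr1:91117705-91145190), and the Esrrb run above was among those of 4. The genes at these runs were chosen after the values were seen.

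Short motifs were counted in the 300-base promoter windows, since no genome was used here from which peaks could be read. Of 21263 windows, 189 held a peak in SSEA1+ cells only, 315 in SSEA1-Thy1- cells only, 11704 in both and 9055 in none. The AP-1 motif TGANTCA, on either strand, was in 9.52% of windows with a peak in SSEA1+ cells only (5.74 to 14.6) and in 20.6% of those with a peak in SSEA1-Thy1- cells only (16.3 to 25.5). It was in 4.67% of windows with a peak in both lists and in 6.99% of all windows. The E-box CAGGTG went the other way, with 32.8% of windows with a peak in SSEA1+ cells only (26.2 to 40.0), 16.2% of those with a peak in SSEA1-Thy1- cells only (12.3 to 20.7) and 19.7% of all. The intervals of the windows of either list alone did not overlap for these motifs. The windows of a gene with several starts can overlap, and the median GC content was 56% in SSEA1+ only windows, 54% in SSEA1-Thy1- only windows and 56.3% in all.

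For the other motifs these intervals overlapped. The Runx motif TGTGGT was in 12.2% of SSEA1+ only windows (7.87 to 17.7), 63 of the 315 SSEA1-Thy1- only windows (15.7 to 24.9%) and 15.0% of all, and the Klf motif CCNCNCCC in 67.2% of SSEA1+ only, 54.6% of SSEA1-Thy1- only and 56.6% of all windows. The shares that follow are for the same 3 sets, SSEA1+ only, SSEA1-Thy1- only and all windows. The Sox motif ACAAAG was in 20.6%, 16.5% and 16.8%, and the Tead motif CATTCC in 16.4%, 15.2% and 13.6%. The Ets motif CCGGAAG was in 7.94%, 4.44% and 11.6%, and the CTCF core AGGGGGC, which can overlap the Klf motif, in 14.3%, 9.21% and 12.9%. The octamer ATGCAAAT was in 1.59%, 1.59% and 1.66%, and the Esrrb motif TCAAGGTCA in 0 of 189, 0 of 315 and 0.334% of all. A match is a string of letters and not a bound site.

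**Figure D5:**
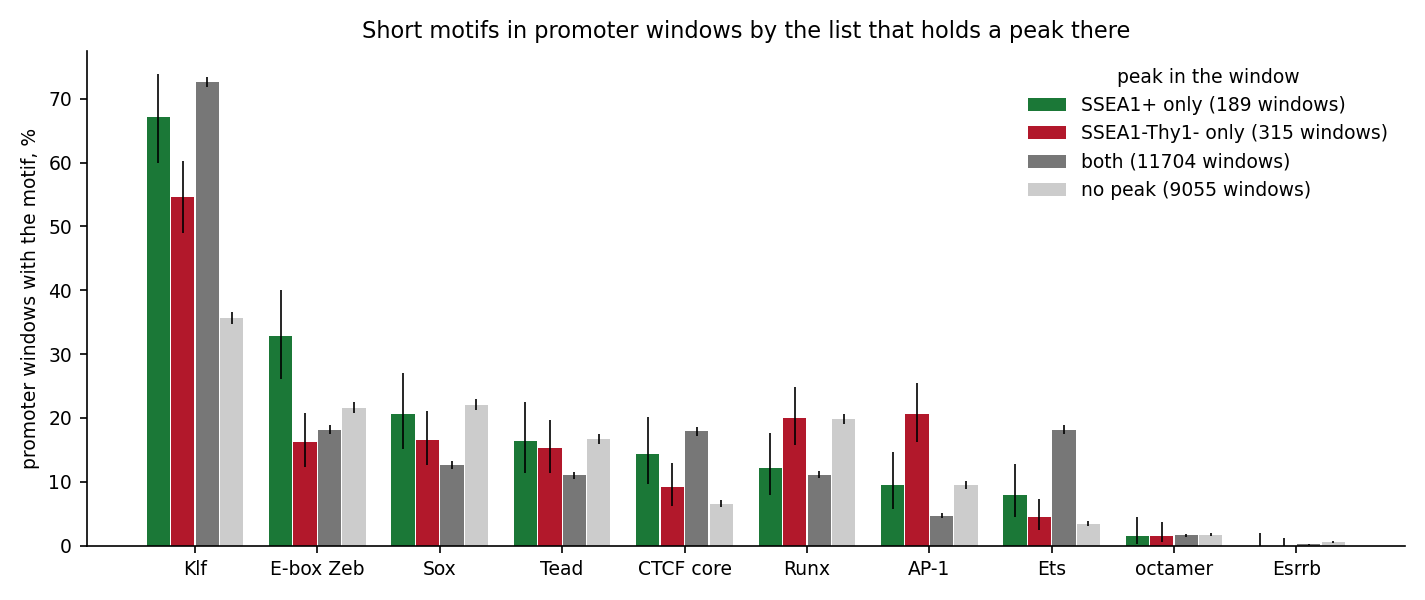
Percentage of promoter windows that hold each of 10 short motifs, by whether the window has a peak in SSEA1+ cells only (green), in SSEA1-Thy1- cells only (red), in both (dark grey) or in neither list (light grey), with exact 95% intervals. The AP-1 motif is in 9.52% of green and 20.6% of red windows, and the E-box in 32.8% of green and 16.2% of red windows.

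MicroRNA hairpins also had more closed than opened sites more often than the reverse. Of 1005 hairpins, 13.8% had more opened and 23.2% more closed sites within 10 kb. The difference was -3 for 8 hairpins, among them Mir155, with no site in SSEA1+ cells and 3 in SSEA1-Thy1- cells, Mir199a-1 with 1 in SSEA1+ and 4 in SSEA1-Thy1- cells, and Mir199b with 4 in SSEA1+ and 7 in SSEA1-Thy1- cells. Mir155 had 3 sites at day 0 and 3 in Thy1+ cells and none in GFP+ cells. In GFP+ cells Mir199a-1 had 4 sites, as in SSEA1-Thy1- cells, and Mir199b had 4, as in SSEA1+ cells. The stem cell clusters had no opened and no closed site, with 4 shared sites near Mir290a and Mir294 and 2 near Mir302a and Mir302b. Mir200b and Mir200c, whose products repress Zeb mRNAs, likewise had 2 shared sites each. These hairpins were chosen after their values were seen. Mature sequences from RefSeq, GRCm38.p6, follow with the seed, bases 2 to 8, in capitals. The last pair, from the stem cell clusters, have the same seed.
miR-155-5p (chr16:84714143-84714165, plus strand): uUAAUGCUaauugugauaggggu
miR-199a-5p (chr9:21496537-21496559, minus strand): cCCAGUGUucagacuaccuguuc
miR-199a-3p (chr9:21496498-21496519, minus strand): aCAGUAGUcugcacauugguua
miR-294-3p (chr7:3220691-3220712, plus strand): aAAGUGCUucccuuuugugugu
miR-302b-3p (chr3:127545275-127545297, plus strand): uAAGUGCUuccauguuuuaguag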

How the data were processed

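ATAC-seq peak lists were used as the authors deposited them, 1 list per group, on mm10 (GRCm38). The tools named per the submitters' processing notes are MACS2, Bowtie2, Picard, SAMtools, cutadapt, Trim Galore and FastQC, with no settings stated there. The deposited score is 0 in every row, so peaks could not be ranked, and all intervals are 400 bp wide. Intervals were merged within each list and compared by an overlap of at least 1 bp. Gene starts, promoter windows and microRNAs came from RefSeq, GRCm38.p6, and a start peak is one within 1 kb of a start. Chromosome 18 has no starts in the promoter table used. The genes named are landmark genes, those of each list with a peak in 1 of the 2 lists or with the most opened or closed sites, and the 10 genes at each end of the ranking by opened minus closed sites. The members and lists were chosen with earlier results of these data known. Python 3.11.15, numpy 2.4.6, pandas 2.3.3 and scipy 1.17.1 were used, and scripts were tested on simulated intervals. Other overlaps, distances, windows and autosomes alone were tried. Depth per sample is unknown.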

Additional observations from a re-analysis of the deposited data

How the results depend on the processing

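The counts of sites and of start peaks stayed within 1.5 times their main values under every alternative run. Opened sites numbered 13460 and closed sites 28951 with an overlap of at least 200 bp, and 11468 and 25712 with no peak allowed within 1 kb. Of the closed sites with no peak allowed within 1 kb, 83.5% had a Thy1+ peak within 1 kb. In the main setting, 82.1% of closed sites overlapped a Thy1+ peak, which is a stricter rule. Genes that gained a start peak numbered 172 at 0.5 kb and 188 at 2.5 kb, and genes that lost one 278 and 356. Of 60 log2 ratios for gene lists under other windows or autosomes alone, 58 stayed within the interval of the main value and 2 did not. The 2 were 0.22 for core pluripotency factors and -0.74 for the sort genes, both at 20 kb, against 0.02 and -0.56. The ratio of core pluripotency factors changed sign, to -0.02, at 100 kb, so it gives no direction for that list. Counting either end of all genes, added after seeing the data, gave 252 gained and 425 lost. No paired analysis was possible because each group has 1 list. For the same reason no replicate could be left out, and a stricter score was not run because every score is 0.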

Other observations

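Gene families grouped by the start of their symbols were looked at after their values were seen, and no test was made. Over all genes, 15.0% had more opened and 32.6% more closed sites within 10 kb. Of genes with a start peak in SSEA1-Thy1- cells, 2.62% lost it, and 3.14% of those with none gained one. Among 6 Ifit genes, which are induced by interferon, 1 had a start peak in SSEA1+ cells and 5 had one in SSEA1-Thy1- cells. Ifit1, Ifit1bl2, Ifit3 and Ifit3b lost theirs, and all 6 genes had more closed than opened sites within 10 kb. The promoter windows of Ifit1 and Ifit1bl2 overlap, so their loss can be that of 1 peak, and genes of this cluster can share sites. Of 11 Ifi2 genes, 8 had more closed sites, and Ifi205 and Ifi211 lost a start peak. Ifitm3 and Oasl1 lost one and Oas1g gained one. The other interferon families were more even, with 3 Ifitm genes having more opened and 3 more closed sites, and 3 Oas genes having more opened and 5 more closed sites.

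Of the 35 collagen genes with an annotated start, 23 had a start peak in SSEA1+ cells and 28 in SSEA1-Thy1- cells. Among all 44 collagen genes, 4 had more opened and 32 more closed sites, beside 15.0% and 32.6% of all genes. Of 35 claudin genes, whose products form tight junctions, 3 had more opened and 7 more closed sites. Of the 27 claudin genes with an annotated start, 13 had a start peak in each list. Of 53 keratin genes, 15 had more opened and 13 more closed sites.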
